A study of Caenorhabditis elegans with 45 samples.

Results

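The C-type lectin genes of the nematode Caenorhabditis elegans were taken as every protein-coding gene in the deposited count table whose name starts with clec-. This rule found 240 rows, which carry 237 distinct gene symbols, among 46926 genes in the table. The symbols clec-15, clec-209 and clec-249 each stood under a pair of gene IDs with identical counts and were counted once. Of the 237 members, 132 passed a filter on low counts and were tested, and 105 were not tested. No untested member averaged more than 0.312 CPM (counts scaled to library size), and 11 members had no count in any library.

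Polyadenylated RNA of whole young adult hermaphrodites was sequenced in 45 libraries, 5 biological replicates (A to E) of each of 9 genotypes. The worms were picked as L4 larvae and collected 6 h later, after growth on Escherichia coli OP50 at 20 °C with normal oxygen. Each genotype is a single strain. The wild type was N2, the egl-9 mutant carried egl-9(sa307), and the egl-9 hif-1 mutant carried egl-9(sa307) and hif-1(ia4). The smg-1 genotypes carried smg-1(n6597) alone, with egl-9(sa307), or with both egl-9(sa307) and hif-1(ia4). The smg-2 genotypes carried smg-2(r863) in the same 3 combinations. All are heritable alleles present in every tissue, and no genotype carries hif-1(ia4) without egl-9(sa307).

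C-type lectins bind sugars or other ligands through a conserved fold that in classical members depends on calcium. The worm genome encodes a very large set of them, many predicted to be secreted, and several are induced in the intestine by bacterial infection. EGL-9 is the prolyl hydroxylase that uses oxygen to mark the transcription factor HIF-1 for destruction, so HIF-1 accumulates in egl-9 mutants even at normal oxygen. The kinase SMG-1 and the helicase SMG-2 are needed for nonsense-mediated decay (NMD), which removes mRNAs with premature stop codons.

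The libraries held between 9822412 and 33169699 counts, and C-type lectin genes took 0.255% to 0.537% of them. Between 104 and 159 members had more than 3 counts in a library. Counts over a mutated gene do not by themselves check these alleles: the median for hif-1 was 166 CPM in N2 and 26.2 in egl-9 hif-1, but 339 and 320 in the smg-1 and smg-2 strains with hif-1(ia4). The summed level of 8 known HIF-1 targets followed the labels, at 67.5 to 80.5 TPM (transcripts scaled to length and library size) in N2, 2970 to 4070 in egl-9 and 50.7 to 65 in egl-9 hif-1. One library, smg-1 egl-9 hif-1 C, reached 163 TPM for these targets against 57.5 to 62.2 in its 4 replicates. Defining markers of intestine, muscle, neurons, epidermis, oocytes and sperm were all detected. In such bulk RNA, fewer cells of a type and less RNA per cell cannot be told apart.

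The family is spread unevenly over the genome. Chromosome V holds 84 members, chromosome IV 53, chromosome II 48, chromosome I 35, chromosome III 14 and chromosome X 3 (genome build WBcel235). Linking members that lie within 20 kb of each other gave 48 clusters with 161 members, the largest of 13, while 76 members stood alone. Of the 35 members on chromosome I only 9 were expressed enough to test, against 39 of 53 on chromosome IV. The predicted proteins ran from 114 to 3514 codons, with a median of 367.5 for tested and 284 for untested members. A coding gene of another name overlaps 40 members, 32 of them tested. Whether strand was used in counting is not given in the sources used here, so reads of such pairs may be shared.

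A few genes carried most of the family's RNA. On the TPM scale, which corrects for transcript length, 7 members averaged at least 100 TPM over the 9 genotypes, 40 at least 10 TPM, and 141 stayed under 1 TPM. The 10 highest members held 65.2% of the summed TPM, and the top 2, clec-87 and clec-63, held 31.3%. In N2, clec-87 stood at 686 ± 119 TPM (SD, n = 5), clec-63 at 293 ± 36.4 and clec-88 at 255 ± 30.8. The next in mean level were clec-47, clec-1, clec-91, clec-150, clec-209, clec-83 and clec-41. The order was not fixed across genotypes: in smg-2 egl-9 hif-1, clec-47 averaged 843 ± 122 TPM and clec-87 206 ± 46.7. Summed over the family, the median was 2700 TPM in N2 (2550 to 2950), 3730 in egl-9 (3570 to 4260) and 2590 in egl-9 hif-1 (2210 to 2790). The egl-9 libraries all lay above those of N2 and egl-9 hif-1, whose ranges overlapped. In the smg-1 background the sums were 2430 to 2890 TPM in smg-1, 3700 to 4250 in smg-1 egl-9 and 2720 to 3390 in smg-1 egl-9 hif-1. In the smg-2 background they were 2550 to 2880, 4030 to 4840 and 3400 to 3910 in the same order. There the sums without hif-1 lay above those of smg-2 and below those of smg-2 egl-9, without overlap.

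**Figure D1:**
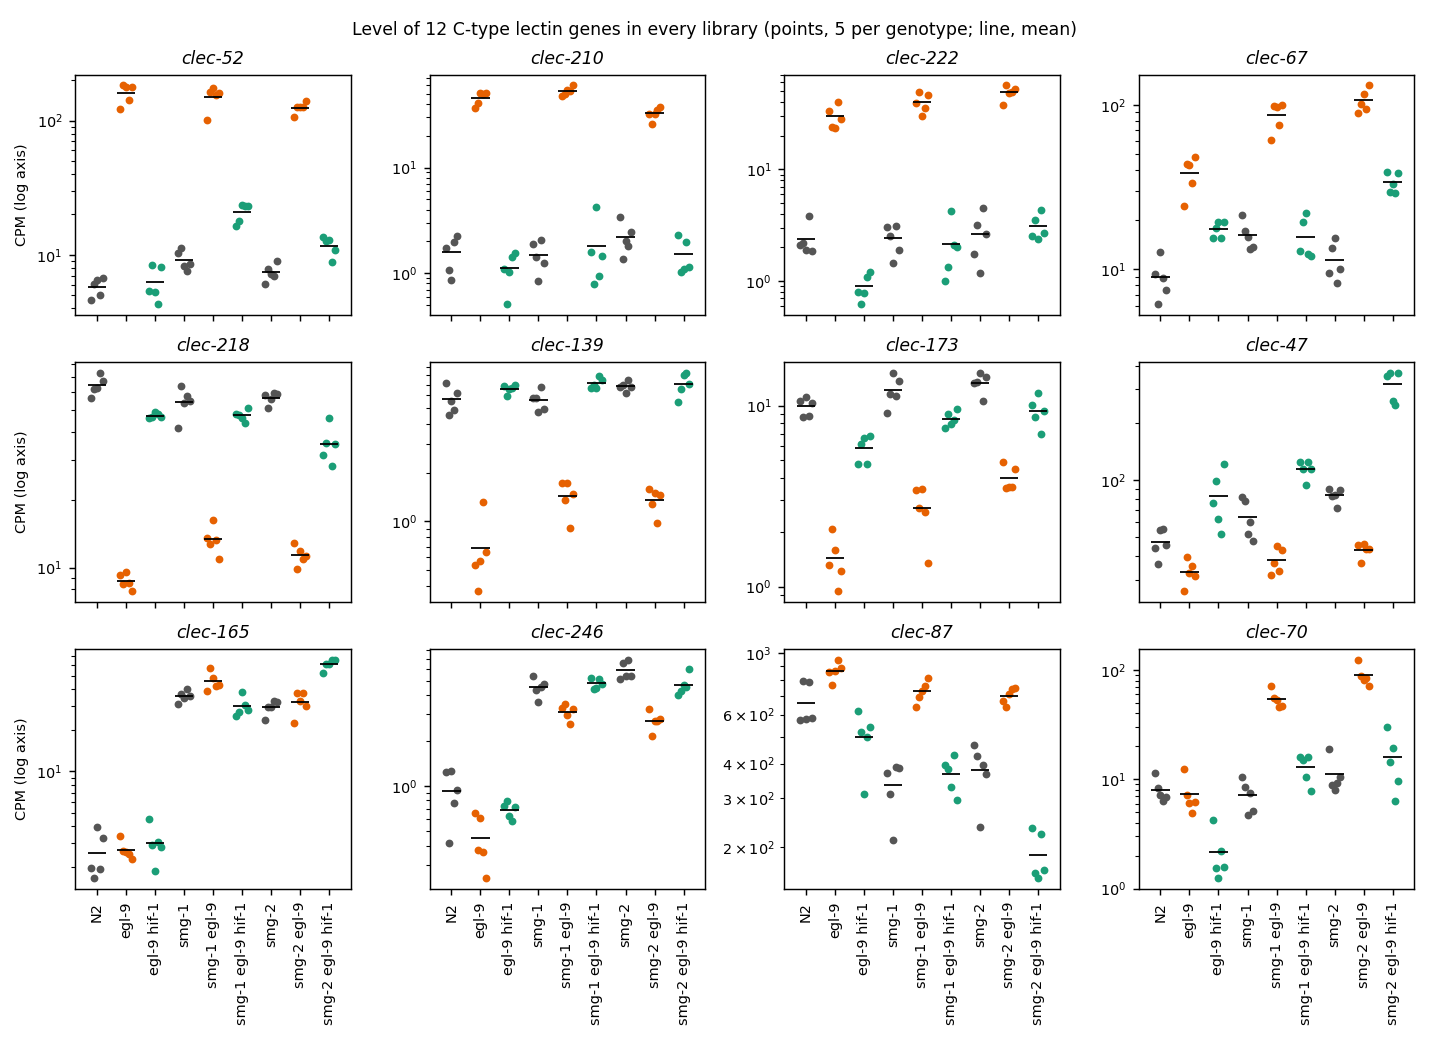
CPM of 12 C-type lectin genes in each of the 45 libraries on a logarithmic axis, 1 point per library, by genotype. Orange points are egl-9 mutants with hif-1 intact, green points egl-9 hif-1 mutants and grey points genotypes with neither mutation; clec-52 stands at 123 to 183 CPM in egl-9 and under 10 in N2.

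The first question was what the loss of EGL-9, and with it constant HIF-1 activity, does to these genes. In the egl-9 mutant against N2, 35 of the 132 tested members were higher and 45 were lower at an adjusted p under 0.05 in edgeR. That is 26.5% and 34.1% of the tested members, against 11.9 and 21.8% of all 16053 genes tested. At least 2-fold changes were more frequent as well: 28 members were higher (background 5.77%) and 31 lower (background 11.8%). With limma on the deposited log2(TPM + 1) values the split was 39 higher and 33 lower. The median log2 fold change of the members was -0.13 and that of all genes -0.03, so the family moved in both directions rather than as a block. A member can pass the filter only because it is high in 1 genotype, and such a member had to differ, so these shares describe the tested members and not all 237.

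The egl-9 mutation was compared with its control in 3 NMD backgrounds that share no library. Of the tested members, 31 were higher in all 3 (23.5%, background 6.60%) and 32 were lower in all 3 (24.2%, background 13.8%). In smg-1 egl-9 compared with smg-1, 47 members were higher and 41 lower (background 25.1 and 25.3%). In smg-2 egl-9 compared with smg-2, 45 were higher and 38 lower (background 19 and 21.9%). Of the 35 members higher in egl-9 against N2, 32 were also higher in the smg-1 comparison, which is 91.4% of the first list and 68.1% of the second (61.5% and 29.3% over all genes). The smg-2 comparison shared 32 of them too, or 91.4% and 71.1% of the lists (62.4% and 39.1% over all genes).

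**Figure D2:**
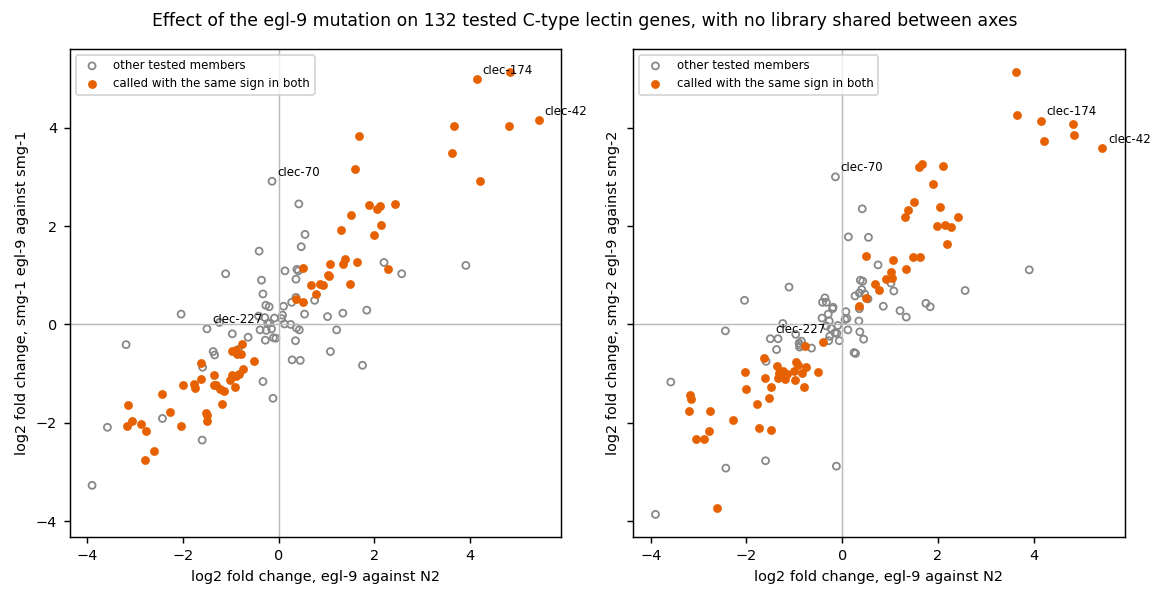
Log2 fold change of each tested C-type lectin gene in egl-9 against N2 (horizontal axis) and in smg-1 egl-9 compared with smg-1 or smg-2 egl-9 compared with smg-2 (vertical axis, 1 panel each). Orange points were called in the same direction in both comparisons, among them clec-52, which lies at 4.82, 4.04 and 4.08.

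The gene with the smallest p among the members that rose was clec-52 (IV:8167164-8168760, minus strand), which is induced by bacterial infection in earlier work. Its CPM was 4.57, 6.05, 6.46, 5.01 and 6.67 in N2 and 123, 183, 177, 143 and 179 in egl-9. In egl-9 hif-1 it was 5.38, 8.39, 5.25, 4.32 and 8.13. Every egl-9 library therefore lay far above every library of the other pair of genotypes, which overlapped. The increase was 28.2-fold (log2 4.82, SE 0.18, adjusted p = 8.42e-24 in edgeR), from 5.75 ± 0.918 to 161 ± 26.4 CPM (SD, n = 5). Removal of hif-1 lowered it by 4.66 on the log2 scale (SE 0.18, adjusted p = 1.02e-23).

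A second gene of like size, clec-210 (V:3118377-3120323, plus strand), overlaps another coding gene. Its CPM was 1.75, 1.07, 0.857, 1.99 and 2.27 in N2 and 37.0, 40.6, 50.6, 49.6 and 50.5 in egl-9, again without overlap. It rose 28.6-fold (log2 4.84, SE 0.31, adjusted p = 1.65e-16 in edgeR) and fell by 5.32 (SE 0.32) when hif-1 was removed. For clec-222 (V:11271351-11272467, plus strand) the N2 libraries read 2.09, 2.19, 1.91, 3.79 and 1.87 CPM and the egl-9 libraries 33.6, 23.9, 23.7, 40.2 and 28.1. It rose 12.6-fold (log2 3.66, SE 0.29, adjusted p = 9.45e-14 in edgeR), and the 5 libraries of each genotype did not overlap.

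Other members of this group started from almost nothing in N2. In egl-9, clec-42 (V:18191412-18194168, plus strand), a gene reported to act in defence against Bacillus thuringiensis, measured 6.51, 7.02, 3.61, 5.76 and 4.96 CPM. In N2 it measured 0.254, 0.119, 0.0659, 0.0642 and 0 CPM, and its log2 fold change was 5.44 (SE 0.47, adjusted p = 1.39e-12 in edgeR). The level of clec-174 (IV:3940259-3941708, minus strand) rose to 3.23, 4.48, 1.89, 3.64 and 3.17 CPM in egl-9 (log2 4.15, SE 0.42). In egl-9 hif-1 no library had more than 3 counts of it, so that it was at least 18.1-fold lower than in egl-9. The increase of clec-17 was 3.63 in log2 with NMD intact, 3.49 in the smg-1 background and 5.14 in the smg-2 background.

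Among the abundant members, clec-63 (II:12895638-12897446, plus strand) rose from 379, 393, 462, 385 and 411 CPM in N2 to 628, 957, 848, 633 and 784 in egl-9. The groups did not overlap, and the log2 fold change was 0.92 (SE 0.13, adjusted p = 4.22e-07 in edgeR), with 0.81 and 0.92 in the smg-1 and smg-2 backgrounds. Its fall on removal of hif-1 was smaller, by 0.63, 0.56 and 0.44 in the 3 backgrounds. A rise of 1.49 was seen for clec-41, reported to act in defence against Bacillus thuringiensis, from 106 ± 19.3 to 299 ± 34.4 CPM.

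The members named in earlier work on infection form a list of 12, chosen with results of these data known, of which 10 could be tested. In egl-9 against N2, 6 of the 10 were higher and 2 were lower, and the median log2 fold change was 1.80. The higher ones were clec-4 (2.28), clec-41 (1.49), clec-42, clec-52, clec-60 (4.21) and clec-67 (2.11). The lower ones were clec-49 (-1.63), whose protein was reported to bind Serratia marcescens, and clec-86 (-2.79). The remaining pair did not pass, clec-71 at 0.42 (adjusted p = 0.336 in edgeR) and clec-85 at 0.36 (adjusted p = 0.109). The value of clec-85 passed with the replicate letter as a block (adjusted p = 0.00829), with only the genotypes compared (0.0336), with DESeq2 (0.0466), with limma (0.0441) and without egl-9 A (0.0445). The summed level of the 12 was 64.6 to 95 TPM in N2, 297 to 436 in egl-9 and 98.1 to 112 in egl-9 hif-1, so the 3 genotypes did not overlap. The egl-9 mutation raised 8 and lowered 2 of the 10 in the smg-1 background, and raised 7 and lowered 2 in the smg-2 background. Of all genes, 25.1% were raised and 25.3% lowered in the first, and 19% and 21.9% in the second.

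The infection gene clec-60 (II:10480043-10481874, minus strand), a marker of the response to Staphylococcus aureus, varied widely between replicates. It measured 2.03, 7.17, 4.55, 2.62 and 3.66 CPM in egl-9 and 0.0659 to 0.444 in N2, so the groups did not overlap. The infection gene clec-67 (IV:3922165-3925039, plus strand) measured 24.1, 43.8, 43.2, 33.2 and 47.9 CPM in egl-9 and 6.17 to 12.8 in N2. Of 7 intestine markers, 1 was higher and 1 lower in egl-9 against N2, with sums of 2420 to 2880 TPM in N2 and 2830 to 3650 in egl-9. Their part in the change of the infection genes was not tested.

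The strongest fall in the egl-9 mutant by p was that of clec-218 (V:8307942-8310766, plus strand). Its CPM was 56.8, 62.1, 62.7, 73.5 and 67.2 in N2, and 9.26, 8.44, 9.51, 8.53 and 7.88 in egl-9. The egl-9 hif-1 libraries read 46.2, 46.5, 48.9, 48.3 and 46.8. The egl-9 libraries thus stood below those of both other genotypes, and the egl-9 hif-1 libraries lay below N2 without overlap. The decrease was 7.36-fold (log2 -2.88, SE 0.11, adjusted p = 2.89e-23 in edgeR), and removal of hif-1 raised the gene by 2.43. In the smg-1 and smg-2 backgrounds the egl-9 mutation lowered it by 2.03 and 2.33.

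Lower-expressed members fell with it. For clec-139 (II:4619988-4621750, minus strand; overlaps another coding gene) the N2 libraries read 7.17, 4.57, 5.54, 4.88 and 6.20 CPM and the egl-9 libraries 0.538, 0.373, 0.574, 1.31 and 0.650. The groups did not overlap, and the log2 fold change was -3.06 (SE 0.20, adjusted p = 1.9e-16 in edgeR). The change in clec-173 was -2.77, from 9.88 ± 1.10 to 1.43 ± 0.434 CPM. Further members lower in all 3 backgrounds were clec-43 (-3.15 in egl-9 against N2), clec-245 (-2.28) and clec-86, with the last 2 under 2 CPM in N2. At still lower levels, clec-247 averaged 0.257 ± 0.103 CPM in N2 and clec-6 averaged 0.273 ± 0.0888. Both had at most 3 counts in every egl-9 library, so that they were at least 1.3-fold and 1.38-fold lower there (adjusted p = 0.0461 and 0.0306 in edgeR). The groups overlapped for both.

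Markers of sperm moved in the same comparisons. In egl-9 against N2 all 8 sperm markers were lower (median log2 -1.23), with sums of 295 to 484 TPM in N2, 123 to 264 in egl-9 and 456 to 561 in egl-9 hif-1. All 8 were higher when hif-1 was removed, and in the smg-1 and smg-2 backgrounds 8 and 7 of them were lower with the egl-9 mutation. None of the 8 was at 0 in any genotype, and their part in the fall of C-type lectin genes was not tested.

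The second question was whether these changes need hif-1. In egl-9 hif-1 compared with egl-9, 52 members were higher and 31 lower (background 26.7 and 20.0%), with a median log2 fold change of 0.20 against 0.05 for all genes. With limma on log2(TPM + 1) values, 37 were higher and 37 lower. The share of lower members, 23.5%, was near its background, but 40 members rose and 21 fell at least 2-fold (30.3% and 15.9%, background 14.0 and 4.85%). For smg-1 egl-9 hif-1 compared with smg-1 egl-9, 45 were higher and 47 lower (background 24.0 and 25.7%). For smg-2 egl-9 hif-1 compared with smg-2 egl-9, 47 were higher and 34 lower (background 28.4 and 29.2%), so there the share of lower members did not exceed that of all genes. In all 3 backgrounds, which share no library, 34 members were higher (25.8%, background 15.2%) and 26 lower (19.7%, background 12.6%).

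Direction was mirrored between comparisons without a common library. Of the 35 members higher in egl-9 against N2, 33 (94.3%) were lower on removal of hif-1 in the smg-1 background and 25 (71.4%) on its removal in the smg-2 background. Over all genes higher in egl-9 these shares were 64.7% and 48.5%. Of the 45 members lower in egl-9 against N2, 39 (86.7%) and 35 (77.8%) were higher in those comparisons, where the shares over all genes were 77.7% and 70.1%. For clec-222 the 3 log2 changes on removal of hif-1 were -5.01, -4.17 and -3.96, and for clec-42 they were -4.65, -3.86 and -2.53. For clec-139 they were 3.27, 2.30 and 2.37, and for clec-86 2.47, 2.86 and 2.65. The library smg-1 egl-9 hif-1 C, which had the highest HIF-1 target sum of its genotype, also read 4.21 CPM for clec-210 where its replicates read 0.789 to 1.59. Without it the fall of clec-210 in the smg-1 background moved from -4.84 to -5.44. That of clec-174 was by 6.11 on the log2 scale with library C. Without it the other 4 libraries had at most 1 count, so that clec-174 was at least 46.8-fold lower.

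In egl-9 hif-1 compared with N2, 17 members were higher and 8 lower (background 9.65 and 4.85%), which is 12.9% and 6.06% of those tested. With limma on log2(TPM + 1) values, 11 were higher and 12 lower. The largest of these by level, clec-47 (V:15175759-15176324, plus strand), read 43.8, 36.1, 54.6, 55.7 and 45.5 CPM in N2. It read 26.2, 39.6, 32.5, 35.4 and 31.5 in egl-9 and 75.7, 99.4, 62.3, 52.2 and 121 in egl-9 hif-1. The egl-9 hif-1 libraries lay above all those of egl-9 (log2 1.32, SE 0.17, adjusted p = 1.9e-08 in edgeR) and overlapped N2 (log2 0.81). The fall of clec-47 in egl-9 against N2 (log2 -0.51) lost its call when egl-9 A was left out, at -0.44 with adjusted p = 0.0549.

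Some members differed from the wild-type level in egl-9 hif-1. The smallest p were those of clec-160, clec-4 and clec-143 among the higher members, and of clec-70, clec-72 and clec-173 among the lower. Against N2, clec-4, known from infection with Bacillus thuringiensis, stood 1.35 higher in egl-9 hif-1, where its libraries read 8.06, 14.0, 31.8, 8.65 and 14.9 CPM against 3.72 to 7.81 in N2. Library C carried the highest value, and the 2 groups did not overlap. Likewise clec-67 was 0.97 higher than in N2 and clec-66 0.85 higher. On the lower side clec-70 changed by -1.90, clec-222 by -1.35 and clec-72 by -0.98. In egl-9 itself clec-72 and clec-222 were above N2, and clec-70 was not called different from N2.

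**Figure D3:**
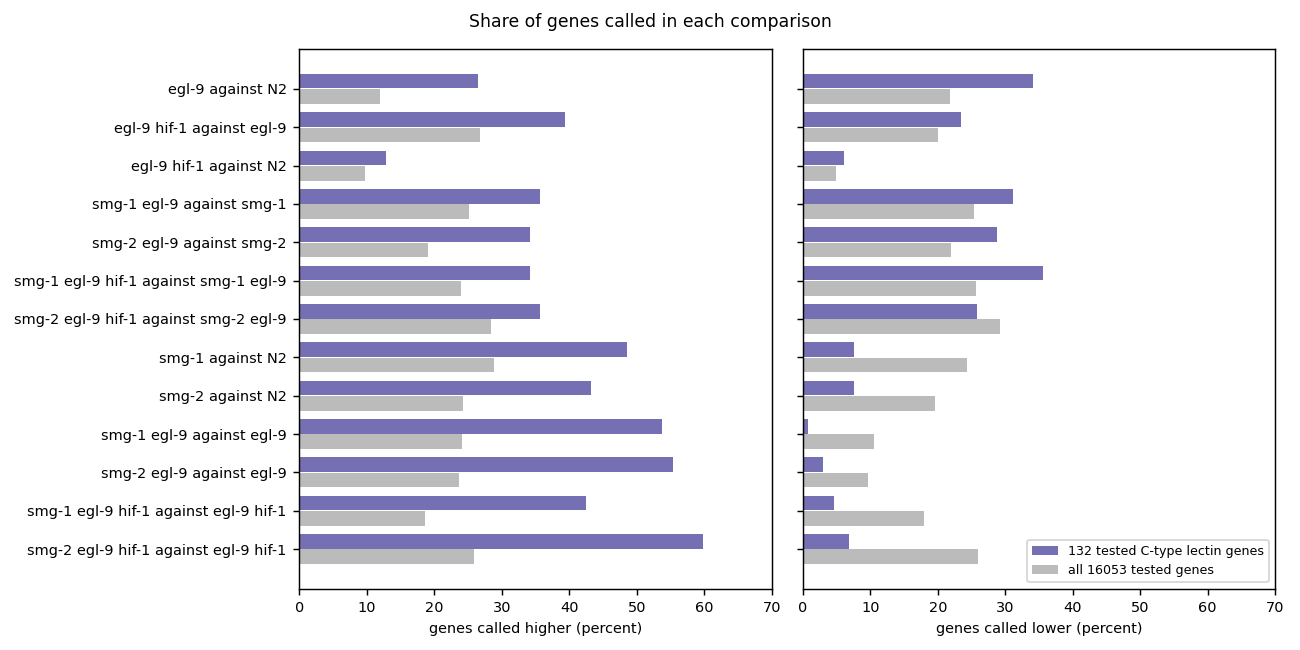
Share of the 132 tested C-type lectin genes called higher or lower (coloured bars) beside the share of all 16053 genes tested (grey bars), in percent, for the 13 comparisons of genotypes. In the 6 comparisons of an NMD mutant with its NMD-intact control, between 42.4% and 59.8% of the members were higher.

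The third question was what the loss of NMD does. In smg-1 against N2, 64 members were higher and 10 lower (background 28.8 and 24.3%), with a median log2 fold change of 0.49 against 0.11 for all genes. For smg-2 relative to N2 the calls were 57 up and 10 down (background 24.3 and 19.6%), with a median of 0.50 against 0.07. In the egl-9 mutant background the counts were 71 and 1 for smg-1 (background 24.1 and 10.6%) and 73 and 4 for smg-2 (background 23.6 and 9.66%). With DESeq2 size factors these became 65 and 3 for smg-1 and 66 and 11 for smg-2. In the egl-9 hif-1 background they were 56 and 6 for smg-1 (background 18.6 and 18.0%) and 79 and 9 for smg-2 (background 25.8 and 26.0%). The 3 comparisons of each NMD gene share no library: smg-1 raised 37 members in all 3 (28.0%, background 13.1%) and smg-2 raised 45 (34.1%, background 14.3%). In edgeR no member was lower in all 3, for either gene, where 6.57% and 7.29% of all genes were. The smg-1 and smg-2 comparisons with N2 share the N2 libraries. Here too, a member can pass the filter only because it is high in the NMD mutants, and such a member had to differ. The shares of higher members therefore describe the tested members and not all 237.

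The member with the smallest p among those that rose was clec-165 (IV:1245171-1246886, minus strand), which overlaps another coding gene. It read 1.97, 1.66, 3.89, 1.93 and 3.27 CPM in N2 and 31.0, 36.5, 34.1, 39.7 and 35.5 in smg-1. In smg-2 it read 23.6, 29.4, 29.6, 32.5 and 32.2, so both mutants lay far above N2. The increase was 14.1-fold in smg-1 (log2 3.82, SE 0.19, adjusted p = 5.84e-21 in edgeR) and 3.56 in log2 in smg-2. It was 4.09 and 3.58 in the egl-9 background and 3.30 and 4.32 in the egl-9 hif-1 background.

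Many of the members that rose were nearly silent in N2. For clec-55 (V:14479279-14482317, plus strand; overlaps other coding genes) the smg-1 libraries read 1.82, 2.69, 2.91, 2.23 and 2.69 CPM and the N2 libraries 0, 0.119, 0.329, 0 and 0.0667. The log2 fold change was 4.71 for smg-1 and 4.40 for smg-2. For clec-25 (V:16843241-16844851, plus strand) they were 3.66 and 3.84. With at most 3 counts in every N2 library, clec-34 was higher at least 5.31-fold for smg-1 and at least 4.13-fold for smg-2. For clec-75 (IV:3960734-3962846, plus strand) these bounds were 3.95-fold and 3.89-fold, and for clec-168 they were 2.84-fold and 3.65-fold.

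Somewhat better expressed members also rose. For clec-246 (V:18189481-18191115, plus strand) the log2 fold change was 2.27 for smg-1 and 2.64 for smg-2. It stayed between 2.50 and 2.77 in the 4 other NMD comparisons. For clec-12 it was 2.12 and 2.40 against N2 and reached 4.06 in smg-2 egl-9 hif-1 compared with egl-9 hif-1. For clec-8 it was 1.68 and 1.88. Of the infection genes 7 of 10 were higher for smg-1 (median 0.66; background 28.8%) and 3 of 10 for smg-2 (median 0.52; background 24.3%). None of the 10 was lower in edgeR in either. Among these, clec-41 rose by 0.70 in smg-1 and by 0.88 in smg-2 on the log2 scale, from 106 ± 19.3 CPM in N2.

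Each NMD mutation lowered 10 members relative to N2, 13 in all, and the 7 lowered by both included 3 of the most abundant of the family. In N2, clec-87 (I:10184462-10185520, minus strand; overlaps another coding gene) read 572, 792, 577, 789 and 586 CPM. It read 371, 311, 212, 389 and 387 with smg-1 mutated. The smg-2 libraries read 465, 427, 237, 394 and 367. Both mutants lay below N2 in every library, with log2 fold changes of -0.99 (SE 0.16, adjusted p = 2.37e-06 in edgeR) and -0.81. The fall of clec-88 (II:6365722-6367002, plus strand) was by 0.98 and 0.66, and that of clec-91 (I:9126140-9127101, minus strand) by 0.68 and 1.04; both overlap another coding gene. The less abundant clec-97 changed by -0.98 and -1.05.

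Oocyte markers moved with clec-87, clec-88 and clec-91. They did not move with clec-97 outside the NMD single mutants. Mutation of egl-9 lowered clec-97 in all 3 backgrounds (-1.74, -1.29 and -2.10), and removal of hif-1 raised it (1.06, 1.02 and 2.60). In both NMD single mutants all 8 oocyte markers were lower than in N2 (medians -0.94 for smg-1, -0.74 for smg-2; background 24.3 and 19.6%). Their sums were 2190 to 2850 TPM in N2, 868 to 1690 for smg-1 and 979 to 1750 for smg-2. The mutation of egl-9 raised 7 of the 8 in each NMD background, where it also raised clec-87 (1.12 and 0.90), clec-88 (1.09 and 0.71) and clec-91 (1.14 and 1.40). Removal of hif-1 lowered 20.0% of all genes with NMD intact, 25.7% with smg-1 and 29.2% with smg-2. Of the 8 markers it lowered 5 (median -0.42), 7 (-0.60) and 7 (-1.61) in that order. It also lowered clec-87 (by 0.79, 0.99 and 1.90 in the same order), clec-88 (by 0.74, 0.91 and 1.76) and clec-91 (by 0.80, 0.83 and 3.26). With NMD intact no oocyte marker was called higher or lower in egl-9 (median 0.21), and clec-87 was 0.38 higher with adjusted p = 0.0611 in edgeR. That value passed in all 7 alternative fits that kept every library (0.38 to 0.52, adjusted p 0.00786 to 0.044), and without N2 B or N2 D. There clec-91 stood 0.50 higher (adjusted p = 0.0397), a call lost without any 1 of N2 A, N2 C, N2 E, egl-9 A, egl-9 C, egl-9 D or egl-9 E, at 0.43 to 0.51. In smg-2 egl-9 hif-1 the oocyte sum was 959 to 1440 TPM, and there clec-91 read 24.0, 12.3, 8.89, 16.4 and 15.1 CPM against 130 to 154 in smg-2 egl-9. None of the markers was at 0 in any genotype, and their part in these results was not tested.

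**Figure D4:**
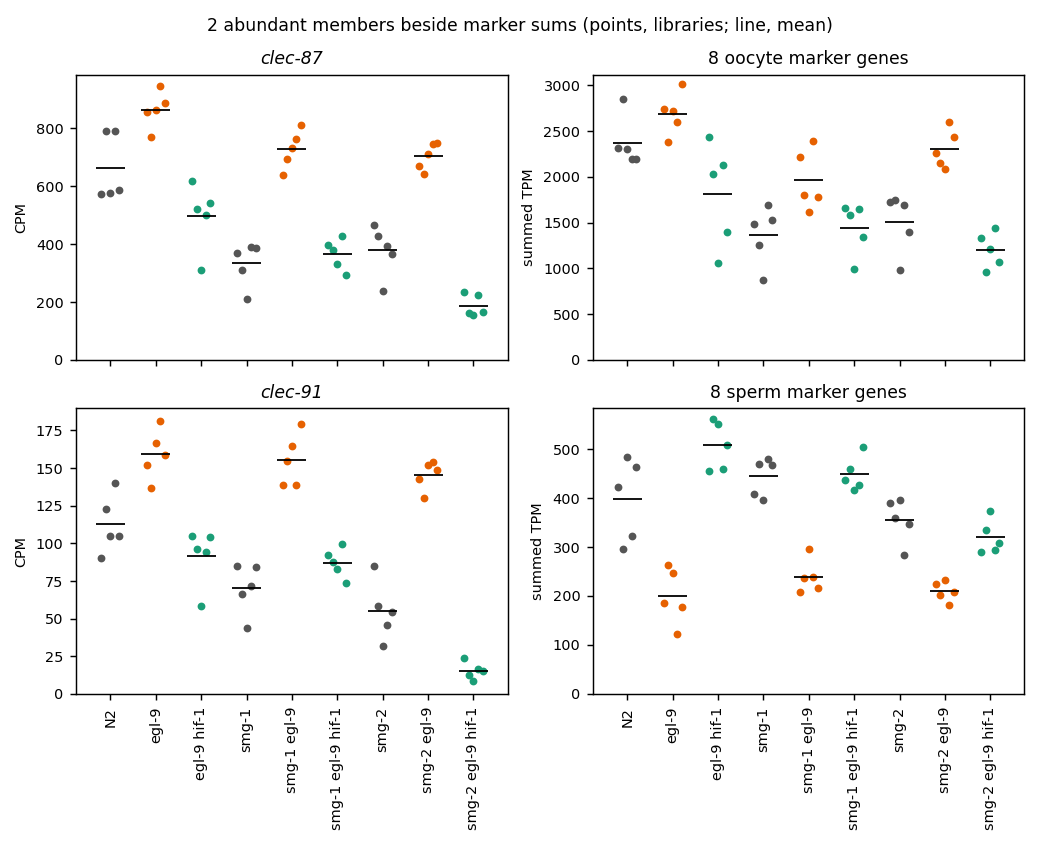
CPM of clec-87 and clec-91 (left panels) beside the summed TPM of 8 oocyte and 8 sperm marker genes (right panels) by genotype, with 1 point per library, the mean as a line, and colours for egl-9 (orange), egl-9 hif-1 (green) and neither (grey). In smg-2 egl-9 hif-1 the oocyte sum lies at 959 to 1440 TPM and clec-91 at 8.89 to 24.0 CPM.

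Neighbouring members did not always move together. The largest cluster, on chromosome V (V:16839121-16869840), holds 13 members, 12 of them tested, and the highest in N2 was clec-26 at 3.41 ± 0.799 CPM. With NMD lost, 9 of the 12 rose in smg-1 and 11 did in smg-2, and none was lower in edgeR, where 28.8% and 24.3% of all genes rose. Members this low in N2 may have passed the filter only through the NMD mutants, so part of that count may be fixed by the filter. In egl-9 against N2 none was higher and 4 were lower (background 11.9 and 21.8%). The cluster on chromosome IV (IV:3922165-4014235) holds 12 members, 11 tested, and there 4 were higher and 3 lower in egl-9 against N2 (background 11.9 and 21.8%). Within it clec-67, clec-72, clec-76 and clec-174 rose in egl-9, clec-73, clec-74 and clec-79 fell, and clec-75 was called only with NMD lost among the 4 comparisons drawn for these clusters. The 6 members of a second cluster on chromosome IV (IV:1245171-1274425), clec-165 to clec-170, held 5 that rose with loss of smg-1 (background 28.8%). With loss of smg-2, 5 rose and 1 fell (background 24.3 and 19.6%), and in egl-9 against N2 none rose and 2 fell (background 11.9 and 21.8%).

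A cluster on chromosome II (II:12893062-12906644) moved in a single direction in egl-9 with NMD intact. All 5 of its members, clec-62 to clec-66, were higher than in N2 (background 11.9%), by 1.02, 0.92, 1.84, 0.86 and 2.42 on the log2 scale. In order of that list their egl-9 levels were 37.4 ± 7.66 CPM for clec-62, 770 ± 141 for clec-63, 0.801 ± 0.138 for clec-64 and 83.7 ± 12.0 for clec-65. When hif-1 was removed 4 of the 5 fell (background 20.0%), and clec-64 stood at -0.74 without passing the test. Only clec-62, clec-63 and clec-66 were higher with the egl-9 mutation in all 3 NMD backgrounds. The egl-9 effect on clec-64 differed by -1.55 in smg-1 and by -1.47 in smg-2 (adjusted p = 0.0377 and 0.0833 in edgeR). Only the first of these passed. Reads of near-identical neighbours may be split between them by estimated counting.

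**Figure D5:**
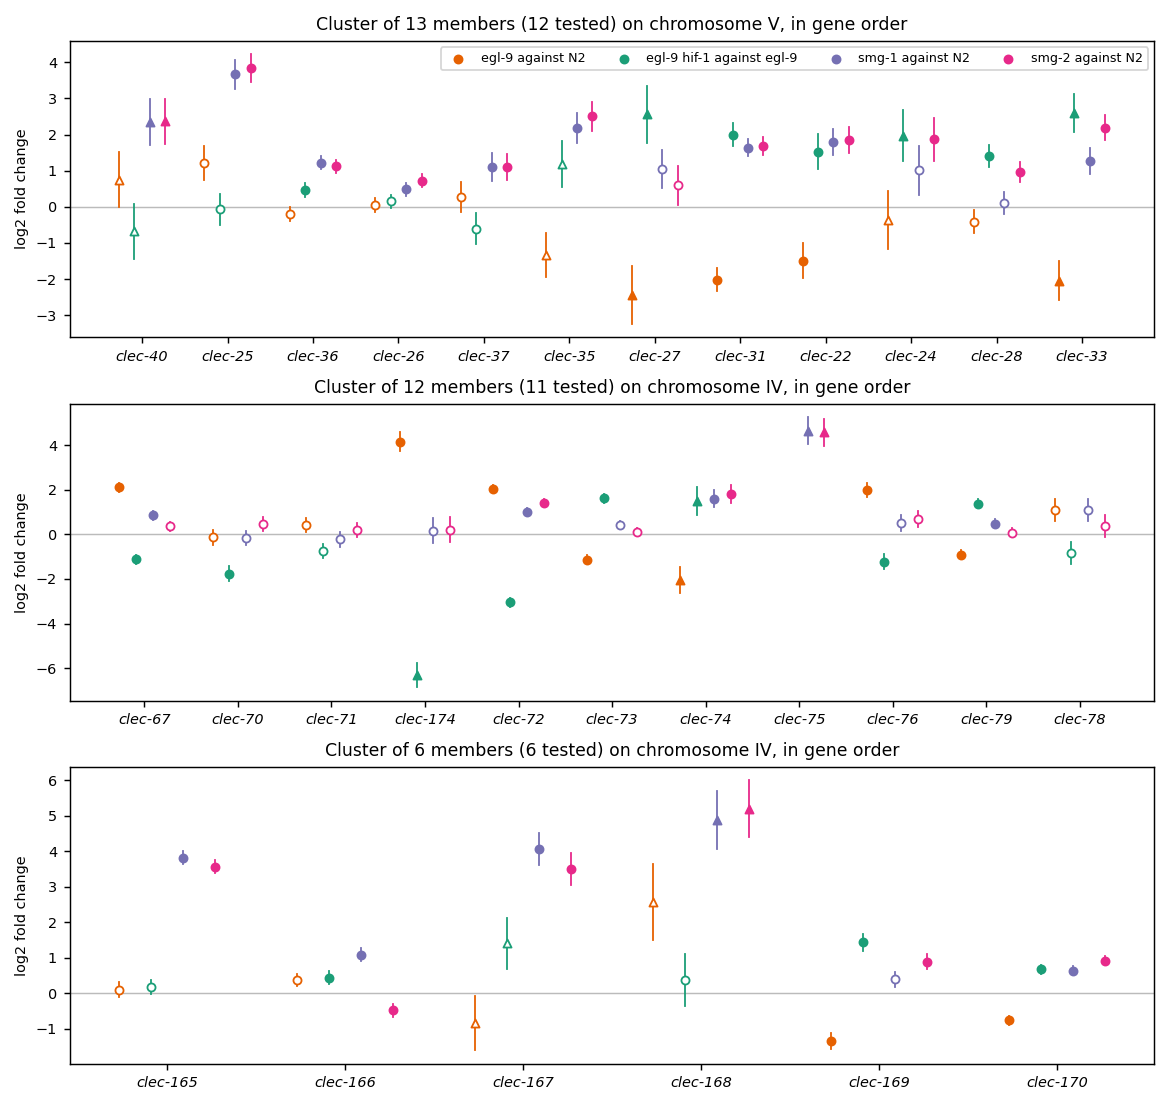
Log2 fold change with its standard error for the tested members of the 3 clusters with the most tested members, in gene order, in egl-9 against N2, egl-9 hif-1 compared with egl-9, smg-1 against N2 and smg-2 against N2. Filled points passed an adjusted p under 0.05 in edgeR and hollow points did not, and triangles are fitted values where 1 genotype had at most 3 counts in every library (no point where both did); 9 of 12 members of the chromosome V cluster were called for smg-1 and 11 for smg-2.

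The last question was whether the effect of egl-9 or hif-1 differs when NMD is lost, tested as interaction terms. For the egl-9 effect, 15 members had a more positive and 5 a more negative value with smg-1 (background 5.78 and 3.15%), and 13 and 1 did with smg-2 (background 1.69 and 1.96%). For the effect of functional hif-1, taken as egl-9 minus egl-9 hif-1, the counts were 7 and 2 with smg-1 (background 2.82 and 0.766%). With smg-2 they were 17 and 14 (background 15.4 and 4.75%), where the positive share of 12.9% was below that of all genes. The splits moved with the scaling. With DESeq2 size factors they were 12 and 5 for egl-9 in smg-1, 9 and 2 for egl-9 in smg-2, 4 and 4 for hif-1 in smg-1, and 14 and 15 for hif-1 in smg-2. Cell type markers moved with the last of these: 7 of 8 oocyte markers (median 1.16) and 6 of 8 sperm markers (median 0.84) had a more positive hif-1 effect in smg-2. Their part in the members' interaction values was not tested.

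The gene clec-70 (IV:3932708-3936307, plus strand), linked to the response to Staphylococcus aureus, gave the smallest p among the positive egl-9 interactions. It read 11.4, 8.24, 7.25, 6.36 and 6.93 CPM in N2 and 12.4, 7.24, 6.03, 4.88 and 6.18 in egl-9, ranges that overlap (log2 -0.14, adjusted p = 0.786 in edgeR). In smg-1 egl-9 it read 71.5, 54.9, 53.4, 46.0 and 47.1 CPM. The smg-2 egl-9 libraries read 124, 88.6, 80.9, 83.7 and 72.0. Those values lay far above the single mutants, which averaged 7.26 ± 2.40 in smg-1 and 11.2 ± 4.54 in smg-2. The egl-9 effect was 2.91 and 3.00 there, and it differed from that with NMD intact by 3.05 (SE 0.44, adjusted p = 1.81e-05) and 3.14 (SE 0.44, adjusted p = 8e-06). Its level in egl-9 hif-1 was 4.28, 1.54, 1.25, 2.19 and 1.58 CPM, below N2 in every library.

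Other members had smaller values. With smg-1 lost, the egl-9 effect was more positive by 2.78 for clec-3, 2.25 for clec-74 and 2.03 for clec-71. With smg-2 lost it was more positive by 2.54 for clec-74 and 1.93 for clec-71. The value of clec-3 there, 1.43, did not pass (adjusted p = 0.194 in edgeR). Both clec-71 and clec-74 lie in the chromosome IV cluster of clec-70. Of its remaining tested members only clec-67 passed, with smg-2 lost (1.11). The loss of clec-218 in egl-9 was less deep in smg-1 by 0.85 (adjusted p = 0.000406 in edgeR) and in smg-2 by 0.55 (adjusted p = 0.0267). The egl-9 effect on clec-221 was more positive by 2.15 in smg-1 and by 1.88 in smg-2, at levels of 0.619 ± 0.263 CPM in N2, 0.258 ± 0.198 in egl-9, and 5.43 ± 1.13 for smg-1 together with egl-9. For clec-52 the hif-1 effect was smaller by 1.81 in smg-1 (SE 0.22, adjusted p = 3.27e-07) and by 1.25 in smg-2. Its level in smg-1 egl-9 hif-1 was 16.4, 17.8, 23.5, 23.3 and 23.0 CPM, above every egl-9 hif-1 library. The 8 HIF-1 targets moved as well. In smg-1 the hif-1 effect was more negative for 5 of them and more positive for none (median -1.12, background 0.766 and 2.82%). In smg-2 it was more negative for 2 and more positive for 2 (median -0.92, background 4.75 and 15.4%). Their part in the clec-52 values was not tested.

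In smg-2 egl-9 hif-1 several members stood apart from smg-1 egl-9 hif-1. There clec-47 read 351, 368, 262, 250 and 367 CPM, against 94.0 to 124 for smg-1 egl-9 hif-1 and 52.2 to 121 for egl-9 hif-1. Removing hif-1 raised clec-47 by 2.89 in the smg-2 background and by 1.32 with NMD intact, a difference of -1.57 in the hif-1 effect (adjusted p = 3.12e-06 in edgeR). Removing hif-1 lowered clec-91 by 3.26 in the smg-2 background and by 0.80 with NMD intact, a difference of 2.46 (adjusted p = 9.29e-09). The low-level gene clec-238 averaged 0.152 ± 0.0724 CPM in smg-2 egl-9; with hif-1 removed it averaged 2.40 ± 0.983, with a difference of -3.37 in the hif-1 effect. The smg-1 and smg-2 interactions share the NMD-intact libraries, so they are given side by side and not as support for each other.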

How the data were processed

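Whole-worm RNA of 45 libraries, 9 genotypes with 5 replicates each, was analysed per gene. The submitters' processing notes name FastQC, STAR 2.7.9a, RSEM 1.3.0, DESeq2 and the build WBcel235, without their roles; the annotation and the strand setting are not given in the sources used here. The authors deposited, per gene, an estimated count and a log2(TPM + 1) value for each library. The expected counts were rounded to whole numbers and fitted in edgeR 4.0.16 (R 4.3.3) with TMM scaling, filterByExpr, 9 genotype means and quasi-likelihood tests with 36 residual degrees of freedom. P-values were adjusted by Benjamini-Hochberg over the 16053 genes tested, with calls at 0.05; CPM are TMM-scaled. TPM were obtained from the deposited log2 values, whose pseudocount is 1, and levels between genes were compared only in TPM. Standard errors were derived from the log2 fold change and the F statistic. Groups with at most 3 counts in every library give a bound in place of a fold change.

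The 13 comparisons and 4 interactions were recomputed with DESeq2 1.42.0, its size factors, limma 3.58.1 on the deposited log2(TPM + 1), other filters, fewer genotypes, the replicate letter as a block, and each library left out. The procedure was tested on simulated data. The members, gene lists and tests were chosen with earlier results of these data known. Genes were named by rule: the 10 highest in TPM, the largest changes shared by 3 backgrounds, the smallest p per comparison, the infection list, and clec-38, an axon outgrowth gene that was not tested here (mean 0.0447 TPM). Other genes of the clusters shown were named for their position. Counts for galectins, immune regulators and companions of clec-60 stand in the closing section. Sequences were not used here. P-values measure the spread between libraries of 1 strain per genotype.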

Additional observations from a re-analysis of the deposited data

Results flagged for a closer look

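Of 216 groups of 5 libraries (24 genes in 9 genotypes), 9 held a library far from the other 4; chance flags about 1 in 20 groups. The highest library read 3.79 CPM for clec-222 in N2 (others 1.87 to 2.19) and 0.738 for clec-86 in smg-1 egl-9 (0.127 to 0.226). For clec-70 in smg-2 it read 19.1 (8.02 to 10.6). For clec-75 in egl-9 it read 0.082 (others 0), a value of at most 3 counts. In smg-1 egl-9 hif-1 the highest library read 4.21 CPM for clec-210 (0.789 to 1.59), 0.34 for clec-174 (0 to 0.0311) and 1.59 for clec-60 (0.529 to 0.679). The first 2 of these values are from library C and the last from library A. The lowest library read 58.7 CPM for clec-91 in egl-9 hif-1 (94.3 to 105) and 0.19 for clec-42 in smg-2 egl-9 hif-1 (0.548 to 0.661).

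Interaction terms in edgeR gave 21 further values, on the log2 scale. For the egl-9 effect in smg-1 they were 3.05 for clec-70, 0.85 for clec-218, 2.15 for clec-221, -0.66 for clec-41, -0.78 for clec-52 and -1.55 for clec-64. The last 3 lost the call without single libraries: clec-41 without N2 D, smg-1 egl-9 B or smg-1 egl-9 E (-0.57 to -0.62), and clec-52 without N2 A, N2 D, egl-9 B, smg-1 A or smg-1 B (-0.70 to -0.74). The call of clec-64 was lost without any of 11 libraries (-1.33 to -1.57). For the egl-9 effect in smg-2 the values were 3.14 for clec-70, 0.77 for clec-48, 1.88 for clec-221 and -2.76 for clec-238.

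For the hif-1 effect in smg-1 they were 1.32 for clec-67, 1.74 for clec-28, 1.80 for clec-221, -1.81 for clec-52 and -0.65 for clec-10. The call of clec-10 was lost without egl-9 A, egl-9 B, egl-9 hif-1 D, smg-1 egl-9 E or smg-1 egl-9 hif-1 E (-0.56 to -0.63). For the hif-1 effect in smg-2 they were 2.46 for clec-91, 1.77 for clec-227, 0.79 for clec-218, -1.77 for clec-166, -1.57 for clec-47 and -3.37 for clec-238.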

How the results depend on the processing

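In 4163 refits of the 240 named values, 190 of the 212 called gene values kept their call and none of the 212 changed sign. Changes of sign were not recorded for the values that were not called. Requiring a mean of at least 5 CPM tests fewer genes, and member calls fell to 42 (egl-9 against N2), 42 (egl-9 hif-1 against egl-9), 45 and 42 (egl-9 in smg-1 and smg-2), 47 and 44 (hif-1 removal there), 39 and 31 (smg-1 and smg-2 against N2), 34 and 32 (both in egl-9), 29 and 41 (both in egl-9 hif-1), 11, 6, 5 and 20 (interactions), and 37 and 33 (egl-9 and hif-1 in 3 backgrounds). Same-letter libraries correlated over 0.1 in 34 of 65 pairs, and in none of the 13 comparisons in every pair. The main fit therefore did not take letters to pair samples. Yet 28 of 45 libraries correlated best with their own letter out of 5, a hint from the data and not the design. A difference between letters is thus left in the spread of the main fit. With the replicate block, calls rose from 25 to 38 in egl-9 hif-1 against N2 and from 9 to 17 for the smg-1 with hif-1 interaction. That interaction gave 5 calls with only the genotypes compared and 14 with limma. Leaving out 1 library gave 16 (without egl-9 hif-1 C) to 34 (without egl-9 hif-1 A) calls in egl-9 hif-1 against N2, 11 (without N2 D) to 22 for smg-1 with egl-9, 9 (without N2 C or smg-2 C) to 15 for smg-2 with egl-9, and 6 (without egl-9 A) to 13 for smg-1 with hif-1. DESeq2 size factors shifted the median of all genes by -0.12 to 0.07. DESeq2's Wald test split the smg-2 with egl-9 interaction 11 to 3 and smg-1 with hif-1 6 to 4. The low gene clec-247 lost its egl-9 call without A, C, D or E of either N2 or egl-9 (adjusted p 0.0552 to 0.102), and clec-6 without N2 B, D or E or egl-9 A, C or D (0.0541 to 0.0854). The cause of these moves was not tested, and depth limits calls for members under 1 CPM.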

Other observations

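Genes that the annotation names as C-type lectin pseudogenes lie outside the protein-coding rule. The table held 25 of them, and 8 passed the filter on low counts. A pseudogene can pass it only because it is high in the NMD mutants, and such a gene had to differ. The counts below therefore describe the 8 and not all 25. All 8 were at least 2-fold higher in each of the 6 comparisons of an NMD mutant with its NMD-intact control. Of all genes tested, between 11.3% and 15.1% were so in these comparisons. Relative to N2 the median log2 value of the 8 was 2.96 for smg-1 and 3.18 for smg-2 (edgeR). For example, clec-236 averaged 2.50 ± 1.32 CPM in N2 and 28.5 ± 5.28 in smg-1 (SD, n = 5), and clec-155 averaged 1.31 ± 0.667 and 20.5 ± 6.11. In egl-9 against N2, 6 of the 8 were lower and none higher (background 21.8 and 11.9%), with a median of -1.99. Of these 6, clec-23 averaged only 0.0498 CPM in N2 and 0 in egl-9. The uncalled pair, clec-44 and clec-220, averaged 0.0329 and 0.0631 CPM in N2. With NMD lost, clec-69 (IV:3929650-3931654, close to clec-70) went the other way. Its mean was 5.39 ± 2.23 CPM for smg-1 alone and 35.7 ± 11.3 once egl-9 was mutated too. The smg-2 pair of means was 11.4 ± 6.28 and 84.4 ± 23.2. The means of clec-152, clec-154, clec-155 and clec-236 still fell with the egl-9 mutation in both NMD backgrounds. These differences were not tested. When hif-1 was removed with NMD intact, 4 of the 8 were higher and none lower (background 26.7 and 20.0%).

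The galectins, another family of sugar-binding proteins, were all tested. Of the 12, 2 were higher and 1 lower in egl-9 against N2 (background 11.9 and 21.8%). These were lec-8 at 0.84, lec-11 at 0.67 and lec-4 at -0.60 on the log2 scale. In egl-9 hif-1 against N2, 9 were higher (background 9.65%). Of 18 regulators of worm immunity, 6 were higher and 1 lower in egl-9 against N2 (background 11.9 and 21.8%). The higher ones were led by the transcription factor gene zip-2 (1.08), and dbl-1, which encodes a TGF-beta ligand, was lower (-0.49). Of 5 companions of clec-60 in the response to Staphylococcus aureus, 4 were tested: fmo-2, a flavin monooxygenase gene, rose by 5.20 in egl-9 against N2 and fell by 6.13 when hif-1 was removed, and lys-5, a lysozyme gene, fell by 1.83.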
